A study of Mus musculus with 4 samples.

Results

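The small leucine-rich proteoglycans are secreted proteins built from leucine-rich repeats that sit on collagen fibrils, and 9 of their genes are described here: Lum, Dcn, Bgn, Fmod, Ogn, Prelp, Aspn, Podn and Omd. They were taken by name as members of the family, by a rule that uses no measured value, though with earlier results of these data known. They are 9 of the 53715 genes in the count tables. The tables come from single-nucleus RNA sequencing of inguinal white adipose tissue, a fat depot under the skin of the groin. The tissue came from C57BL/6N mice aged 6 months, with 2 libraries labelled PTRF knockout and 2 labelled wild type (WT). PTRF (now cavin-1, gene Cavin1) coats caveolae, the small pits of the plasma membrane, and the title of the series concerns a distal enhancer of that gene. The labels give no further allele, no promoter-driven deletion and no treatment. The titles number the mice within each genotype but do not say whether animals were pooled in a library, so p-values here measure the spread between libraries.

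As background, the core proteins bind the surface of collagen fibrils and set how thick the fibrils grow and how they are spaced. Most carry chondroitin, dermatan or keratan sulfate chains, and several also hold TGF-beta or touch receptors at the cell surface. In fat, the fibroblast-like progenitors that can become adipocytes are a main source of collagen, and these proteoglycans belong to the matrix that surrounds each adipocyte. Decorin (Dcn), biglycan (Bgn) and asporin (Aspn) form the first class of the family. Lumican (Lum), fibromodulin (Fmod), Prelp and osteomodulin (Omd) belong to the second, osteoglycin (Ogn) to the third, and podocan (Podn) stands apart from these.

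The genes lie in a few clusters of the genome (GRCm38 coordinates, GENCODE M21). Dcn (chr10:97479609-97518143) and Lum (chr10:97565128-97572703) are neighbours on the plus strand of chromosome 10, and Prelp (chr1:133910304-133921414, minus strand) and Fmod (chr1:134037254-134048277, plus strand) on chromosome 1. Aspn (chr13:49544443-49567565), Omd (chr13:49582462-49592822) and Ogn (chr13:49608046-49624501) follow each other on the plus strand of chromosome 13. All 3 lie inside the span of Cenpp, a centromere protein gene on the other strand. Bgn (chrX:73483602-73495933, plus strand) and Podn (chr4:108014791-108096445, minus strand) stand alone among the members. Podn shares 52607 bases with Scp2, a lipid carrier gene of the same strand, and Prelp overlaps the antisense gene Gm15851. The sources used here do not give how reads of overlapping genes were assigned, or whether strand was used. Counts of Podn, Prelp, Aspn, Omd and Ogn are therefore uncertain to that extent.

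The promoters of the chromosome 13 trio and of Podn are shown because their classes of highest mean level differ. The trio had its highest mean level among the 12 compared classes in the Pi16-type progenitor-like nuclei, and Podn had its highest in adipocyte-like nuclei. For each of these genes the top class overlapped the next class, collagen-rich progenitor-like, in range. Each run is the 250 bases before the annotated start, 5′ to 3′ on the gene's strand, from RefSeq on GRCm38.p6. Capitals mark matches, on either strand, to 5 short patterns of known promoter elements. The TATA box was searched as TATAAA and the CCAAT box by the letters of its name. The GC box, known from Sp1 binding, was searched as GGGCGG. The remaining patterns were TGANTCA for the AP-1 factors and, for the TEAD factors, GGAATG. The positions are chr13:49544193-49544442 (plus) for Aspn, chr13:49582212-49582461 (plus) for Omd, chr13:49607765-49608014 (plus) for Ogn and chr4:108031955-108032204 (minus) for the first of 2 annotated starts of Podn. Both RefSeq starts of Podn, 108031954 and 108030986, lie inside its GENCODE span given above. The bases shared with Scp2, 108043839 to 108096445, lie upstream of both starts.
Aspn: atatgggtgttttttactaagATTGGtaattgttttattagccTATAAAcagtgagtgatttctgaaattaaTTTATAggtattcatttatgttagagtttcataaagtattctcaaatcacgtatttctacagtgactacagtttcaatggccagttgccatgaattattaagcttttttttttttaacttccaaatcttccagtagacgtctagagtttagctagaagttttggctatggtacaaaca
Omd: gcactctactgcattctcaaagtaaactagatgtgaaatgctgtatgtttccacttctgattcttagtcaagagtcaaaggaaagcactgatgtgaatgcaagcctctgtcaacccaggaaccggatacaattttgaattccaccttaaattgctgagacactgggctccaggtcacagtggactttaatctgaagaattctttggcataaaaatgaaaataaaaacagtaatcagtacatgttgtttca
Ogn: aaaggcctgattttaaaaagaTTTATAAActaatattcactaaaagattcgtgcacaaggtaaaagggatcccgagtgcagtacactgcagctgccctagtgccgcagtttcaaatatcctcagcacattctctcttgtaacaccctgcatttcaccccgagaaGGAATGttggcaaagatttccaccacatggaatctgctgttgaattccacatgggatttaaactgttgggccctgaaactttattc
Podn: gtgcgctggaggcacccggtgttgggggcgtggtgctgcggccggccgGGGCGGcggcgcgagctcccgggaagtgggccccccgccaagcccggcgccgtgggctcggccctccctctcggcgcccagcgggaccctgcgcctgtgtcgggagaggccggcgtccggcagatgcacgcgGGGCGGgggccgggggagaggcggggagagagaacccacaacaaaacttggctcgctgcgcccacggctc
The trio is poor in G and C, at 30.0% for Aspn, 38.4% for Omd and 42.0% for Ogn, against a median of 52.4% over 32851 promoters. Their CpG counts are 2, 1 and 4 in the same order of genes, against a median of 6. The Podn run is 78.0% G and C with 32 CpG, while that of its second annotated start, not printed, is 64.0% with 7 CpG. The TATA box letters matched in Aspn and in Ogn, each with 2 matches, which in Ogn overlap on opposite strands, and 12.4% of all promoters hold it. The CCAAT box matched in Aspn (33.8% of all promoters) and the TEAD site in Ogn (12.6%). The GC box matched 2 times at the first start of Podn and 0 times at the second, and is held by 32.7% of all promoters. No match to the AP-1 site (6.7% of all promoters) was found in any of the 7 members with an entry, and no match of the 5 patterns was found in Omd. A match is a run of letters only. Lum and Dcn have no entry in the promoter table used.

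After filtering, 50067 nuclei remained, with 11988 and 15887 in the libraries labelled knockout 1 and 2 and 15528 and 6664 in those labelled WT 1 and 2. Their summed UMIs (counted RNA molecules) ranged from 8623219 to 34819482 per library, and median UMIs per nucleus from 844.5 to 1401. The deepest was knockout 2. The targeted gene goes against the labels: Cavin1 had 53.9 and 50.5 CPM (UMIs of a gene scaled to an equal total in each library) under the knockout label, against 1.81 and 1.04 under the WT label. The difference was 5.08 on the log2 scale (edgeR quasi-likelihood, adjusted p = 1.05e-16). Directions below follow the labels as given, so each one is of "the libraries labelled knockout", in which Cavin1 was the higher. The names of the deposited files also carry the genotype opposite to the sample labels. If the labels were exchanged, every difference between them given below would change sign; which of the sources is right could not be settled here. Barcodes found in more than 1 library numbered 508. Nuclei were clustered without the 9 members, and classes are named "-like" from marker genes. Adipocyte-like nuclei numbered 8022, and 2 progenitor-like clusters held 4610: 1280 of a Pi16 type (Pi16, Dpp4, Sema3c, known from interstitial progenitors of fat) and 3330 led by Lama2, Col1a1, Col1a2 and Col3a1. Mammary epithelial-like nuclei were also present, with 4349 luminal secretory-like, 1390 luminal hormone-sensing-like and 2703 myoepithelial-like. Unnamed cluster 0, with 8479 nuclei of low depth, made up 29.3% and 12.8% of nuclei in the libraries labelled knockout and 6.05% and 29.9% under the WT label.

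The members were spread unequally over the classes, of which 12 had at least 50 nuclei in every library. Progenitor-like nuclei held most UMIs of Dcn (80.6% of 23648) and Lum (77.0% of 2773), and 66.4% of the 1801 UMIs of Ogn. They held 46.7% of the 302 UMIs of Omd and 44.0% of the 782 of Aspn. Adipocyte-like nuclei instead held 63.0% of the 3301 UMIs of Podn and 37.5% of the 3055 of Prelp, of which luminal secretory-like nuclei held a further 26.7%. The 730 UMIs of Bgn were divided, with 32.3% in progenitor-like and 16.3% in myoepithelial-like nuclei. Fmod was sparse everywhere, with 193 UMIs in all. These shares depend on how many nuclei of each class were captured as well as on the level in each.

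**Figure D1:**
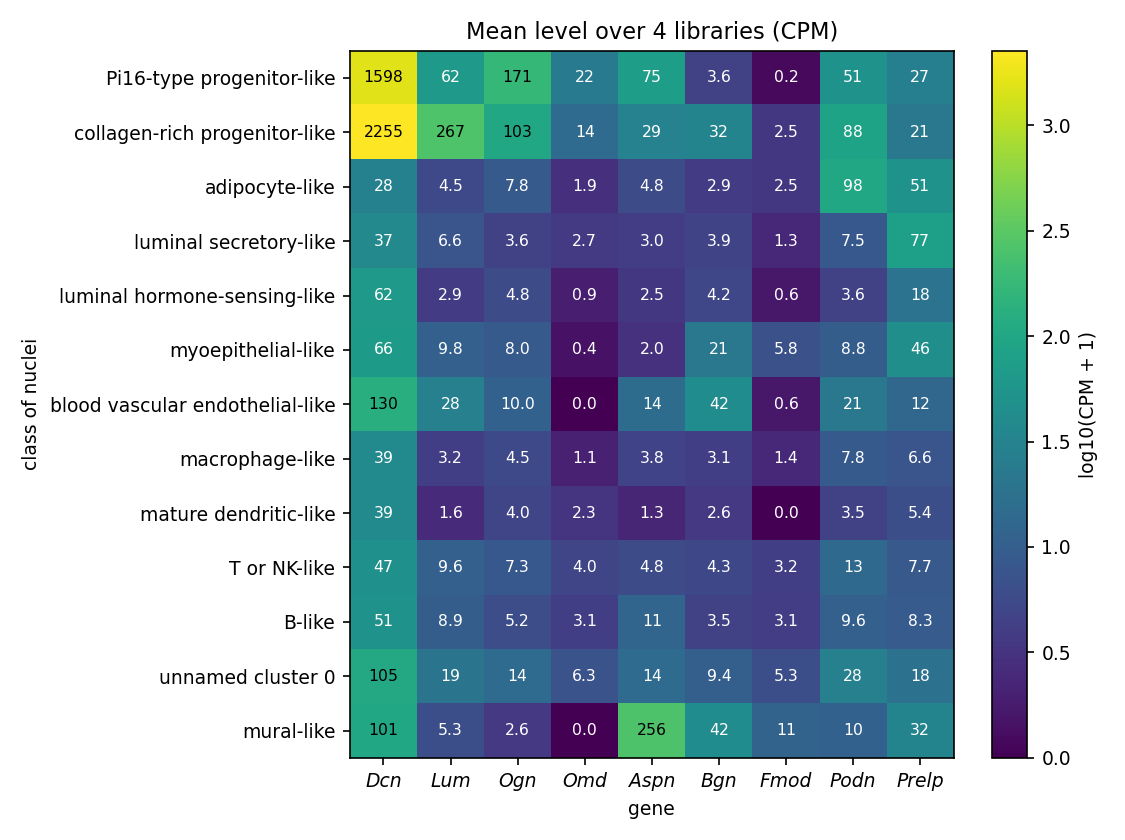
Mean level of each member (columns) in the 12 compared classes and in mural-like nuclei (rows), as CPM over the 4 libraries, printed in each cell and coloured by log10(CPM + 1). Dcn reaches 1598 CPM in Pi16-type and 2255 CPM in collagen-rich progenitor-like nuclei, while Podn is highest in adipocyte-like and Prelp in luminal secretory-like nuclei; CPM is not per length, so columns are read down and not across.

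Decorin, which coats type I collagen fibrils and limits their width, separated progenitor-like nuclei from every other compared class. In progenitor-like nuclei Dcn stood at 1802 and 2865 CPM under the knockout label and at 2532 and 1232 under the WT label. In adipocyte-like nuclei it stood at 22.3 and 42.5 CPM under the knockout label and at 30.3 and 18.8 under the WT label, the lowest mean of the 12 classes. The values of the next class in the order, blood vascular endothelial-like, ran from 46.3 to 212 CPM, below every progenitor-like value. T or NK-like nuclei, which should lack decorin, still held 18.2 to 82.4 CPM, above adipocyte-like nuclei in 3 of 4 libraries. Dcn in adipocyte-like nuclei was thus not separated from that level, and its source there was not tested.

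Lumican, a keratan sulfate proteoglycan best known for the transparency of the cornea, followed the same class order at its top. In collagen-rich progenitor-like nuclei Lum stood at 338 and 488 CPM under the knockout label and at 131 and 110.2 under the WT label. In adipocyte-like nuclei it stood at 5.67 and 6.27 CPM under the knockout label and at 2.34 and 3.75 under the WT label. T or NK-like nuclei held 15.03 and 14.2 CPM under the knockout label against 3.57 and 5.61 under the WT label. Lum in adipocyte-like nuclei was below the T or NK-like level in 4 of 4 libraries, and its source there was not tested.

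Across the class boundary, 6 of the 8 members that could be tested were higher in progenitor-like than in adipocyte-like nuclei and 2 were lower. These contrasts compare both classes within each of the 4 libraries. Of the 14600 genes tested in that contrast 36.9% passed (18.7% higher, 18.2% lower), so passing is common there. Dcn was higher by 6.03 on the log2 scale (SE 0.19, edgeR adjusted p = 8.67e-10) and ranked first of all genes by p. Lum was higher by 5.38 (SE 0.24, edgeR adjusted p = 3.55e-09). Ogn (3.88), Omd (3.33), Aspn (2.97) and Bgn (2.96) were higher too, with edgeR adjusted p between 1.04e-06 and 0.000857. Prelp was lower in progenitor-like nuclei by 1.32 (log2 -1.32, SE 0.24, edgeR adjusted p = 0.000551). Podn was lower as well (log2 -0.54, SE 0.18, edgeR adjusted p = 0.0314). Podn lost its call without knockout 2 (-0.40, adjusted p = 0.225) and without WT 1 (-0.41, adjusted p = 0.182), by the same test, and also in nuclei of at least 1000 UMIs and 500 genes. The median difference of the 8 members was 3.15, against 0.05 over all genes tested.

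**Figure D2:**
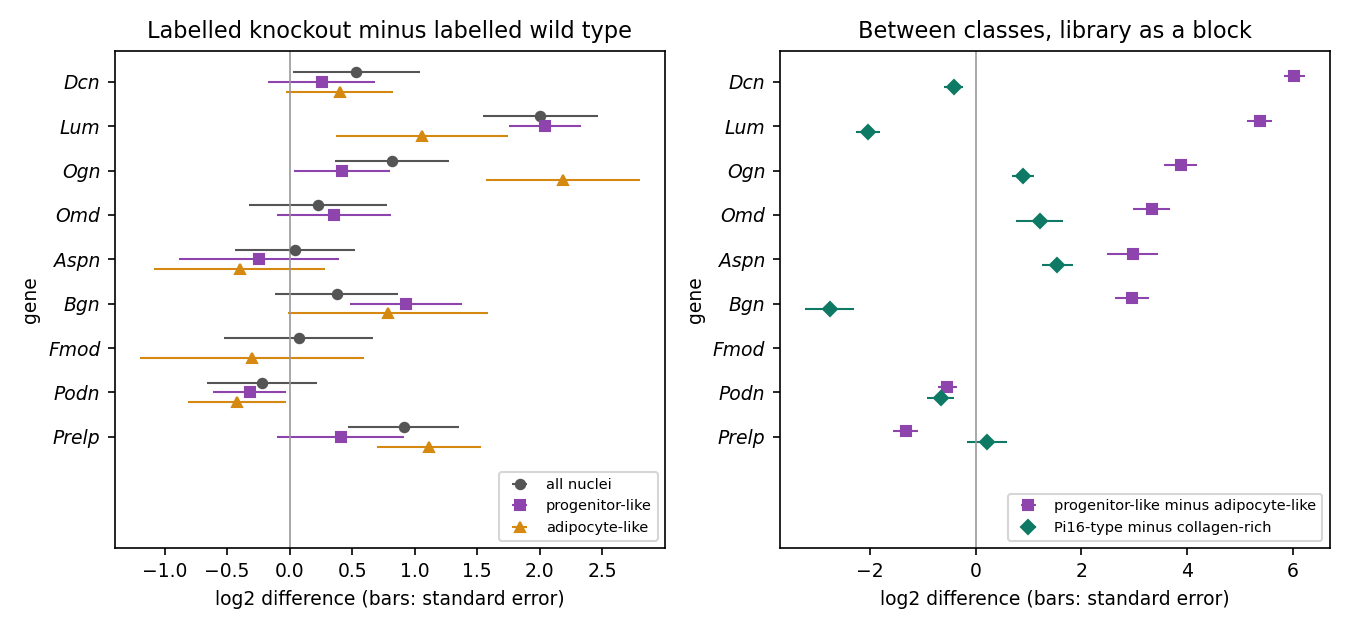
Log2 differences of the 9 members with their standard errors. The left panel gives labelled knockout minus labelled WT in all, progenitor-like and adipocyte-like nuclei, with Lum near 2 in the first 2 sets, and the right panel gives progenitor-like minus adipocyte-like and Pi16-type minus collagen-rich nuclei, with Dcn at 6.03 and Bgn at -2.76 at the extremes.

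The 2 kinds of progenitor-like nuclei differed in which members they held. Pi16-type nuclei were lower in Lum and Bgn and higher in Aspn and Ogn than collagen-rich nuclei. In that contrast 12.7% of 8806 genes passed (7.34% higher, 5.33% lower), and 4 of the 8 members tested did. The members' median difference was -0.10, against -0.01 over all genes tested.

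Lum stood at 64.5 and 133 CPM in Pi16-type nuclei of the libraries labelled knockout and at 17.4 and 34.6 in those of WT libraries, below the collagen-rich values given above in each of the 4 libraries. The difference was -2.04 on the log2 scale (SE 0.22, edgeR adjusted p = 4.34e-08). Biglycan, a close relative of decorin with a pair of chains where decorin has a single chain, was near the floor in Pi16-type nuclei. Bgn stood there at 0 and 7.35 CPM under the knockout label and at 4.35 and 2.66 under the WT label. In collagen-rich nuclei it stood at 25.5 and 52.3 under the knockout label and at 29.0 and 21.3 under the WT label. Bgn was lower in Pi16-type nuclei (log2 -2.76, SE 0.47, edgeR adjusted p = 5.4e-05). The 0 rests on 73 nuclei, where it allows up to 38.7 CPM, more than the collagen-rich value of that library.

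Aspn and Ogn were higher in Pi16-type nuclei. Aspn, which carries an aspartate tract and no chain, stood at 38.7 and 123 CPM in Pi16-type nuclei of the libraries labelled knockout and at 23.2 and 117 in those of WT libraries. In collagen-rich nuclei Aspn stood at 22.5 and 28.9 under the knockout label and at 12.2 and 54.1 under the WT label. Aspn was higher in Pi16-type nuclei in 4 of 4 libraries (log2 1.55, SE 0.30, edgeR adjusted p = 0.000298), but the call was lost without knockout 2 (1.03, adjusted p = 0.131). The level varied more between replicates than between labels, with knockout 2 and WT 2 the high libraries of their groups in both kinds of nuclei.

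Osteoglycin, also called mimecan and first described in bone, stood at 129 and 259 CPM in Pi16-type nuclei under the knockout label and at 168 and 128 under the WT label. In collagen-rich nuclei Ogn stood at 75.0 and 184 under the knockout label and at 54.3 and 98.6 under the WT label. It was higher in Pi16-type nuclei in 4 of 4 libraries (log2 0.89, SE 0.21, edgeR adjusted p = 0.00287), and the call was lost without WT 1 (0.59, adjusted p = 0.133). Osteomodulin, a keratan sulfate proteoglycan of mineralised tissue, stood at 0 and 30.3 CPM in Pi16-type nuclei under the knockout label and at 26.1 and 31.9 under the WT label. In collagen-rich nuclei Omd stood at 25.5 and 15.9 under the knockout label and at 7.48 and 5.80 under the WT label. It was higher in Pi16-type nuclei in 3 of 4 libraries and did not pass (log2 1.21, SE 0.45, edgeR adjusted p = 0.0814). The 0 rests on the same 73 nuclei. Without that library Omd passed (1.52, edgeR adjusted p = 0.0105). Dcn (-0.42, adjusted p = 0.175), Podn (-0.66, adjusted p = 0.102) and Prelp (0.22, adjusted p = 0.824) did not pass between the 2 clusters by the same edgeR test.

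**Figure D3:**
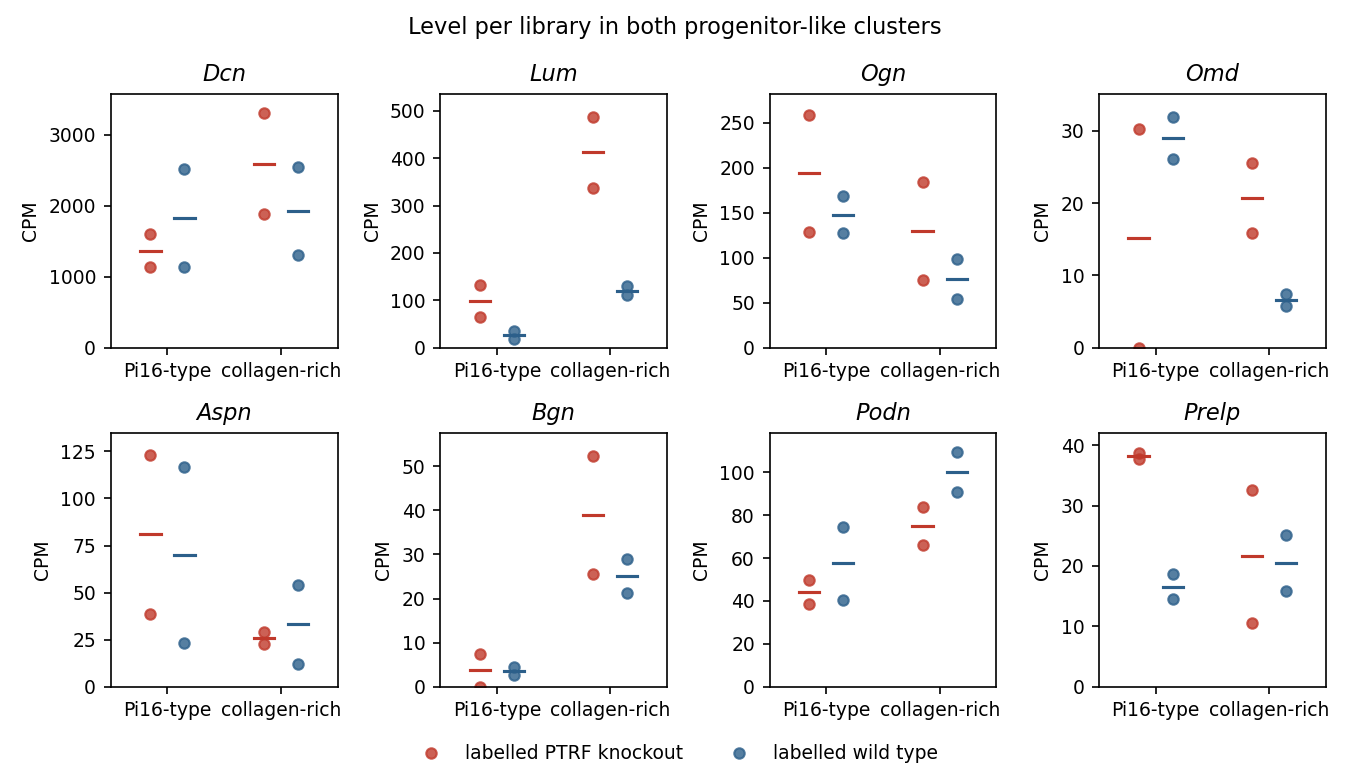
Level of 8 members per library (points, CPM from 0) with the group mean (line) in Pi16-type and collagen-rich progenitor-like nuclei, with the libraries labelled knockout on the left of those labelled WT. Lum and Bgn sit lower in Pi16-type nuclei, with Lum at 17.4 to 133 CPM there, and Ogn and Aspn sit higher, with Ogn at 128 to 259 CPM there.

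Mural-like nuclei, of which there were 158 and at most 48 per library, were too few for a test and held the highest Aspn level seen in any named class. Aspn stood there at 233 and 454 CPM (11 and 43 counts) in the libraries labelled knockout and at 122 and 217 (6 and 5 counts) under the WT label. Together these are 8.31% of all Aspn UMIs. Omd was at 0 in mural-like nuclei and in blood vascular endothelial-like nuclei in all 4 libraries. These zeros rest on as few as 20 mural-like and 79 endothelial-like nuclei in a library. Omd reached a mean of only 22.1 CPM in its highest compared class, so the zeros do not show absence.

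Biglycan was not confined to progenitor-like nuclei. Of the 12 compared classes, the highest mean was that of blood vascular endothelial-like, at 19.5 and 14.98 CPM (3 and 6 counts) under the knockout label and 39.7 and 92.5 CPM (7 and 8 counts) under the WT label for Bgn. Its values overlapped those of collagen-rich nuclei and rest on few counts. Myoepithelial-like nuclei, the contractile outer layer of the mammary duct, held 16.3% of Bgn UMIs, at 16.9 and 33.0 CPM under the knockout label and 23.2 and 12.1 under the WT label. All 4 values were above those of unnamed cluster 0, the next class in the order, and of T or NK-like nuclei, at 2.23 to 6.58 CPM. Unnamed cluster 1, led by Pcdh15, Csmd1, Unc5c, Cxcl13 and C7, had 342 nuclei and was not compared. It had a higher mean of Bgn than any compared class, at 57.5 and 128 CPM under the knockout label and 50.3 and 63.3 under the WT label, and it held 359 to 797 CPM of Dcn. Mural-like nuclei held 0 and 63.3 CPM of Bgn (0 and 6 counts) under the knockout label against 61.0 and 43.3 (3 and 1 counts) under the WT label.

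Podocan, first described in the podocytes of the kidney, was found in both kinds of progenitor-like nuclei and in adipocyte-like nuclei. In Pi16-type nuclei Podn ran from 38.7 to 74.4 CPM. In collagen-rich nuclei Podn stood at 84.0 and 65.9 CPM under the knockout label and at 109 and 90.8 under the WT label. In adipocyte-like nuclei it stood at 76.8 and 92.3 under the knockout label and at 135 and 87.5 under the WT label. The adipocyte-like value was above the collagen-rich value in 2 of 4 libraries. T or NK-like nuclei held 11.2 to 16.8 CPM of Podn, below all of these. The overlapping gene Scp2 was also highest in adipocyte-like nuclei, which held 58.4% of its UMIs, at 108 and 91.7 CPM under the knockout label and 136 and 103 under the WT label. In T or NK-like nuclei Scp2 stood at 23.7 to 44.2 CPM, above Podn there in every library. The part of Scp2 reads in the Podn counts was not tested.

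Prelp carries no chain and ties basement membranes to the collagen below them. Of the 12 compared classes, its highest mean was in luminal secretory-like nuclei, the milk-forming lineage of the mammary duct. Prelp stood there at 63.9 and 133 CPM under the knockout label and at 69.2 and 42.5 under the WT label. In adipocyte-like nuclei Prelp stood at 56.7 and 80.0 CPM under the knockout label and at 19.7 and 46.9 under the WT label. Myoepithelial-like nuclei came next, at 27.5 and 74.9 CPM under the knockout label and 55.7 and 26.5 under the WT label. Neighbours in this order overlapped in range, and the secretory-like value was above the adipocyte-like value in 3 of 4 libraries. T or NK-like nuclei held 2.82 to 13.6 CPM of Prelp, below all of these values. Higher means than in luminal secretory-like nuclei were seen in sets of nuclei too few to compare. These were a cluster of mixed markers (85.0 CPM on 32 counts) and skeletal muscle-like nuclei (107 CPM on 4 counts).

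**Figure D4:**
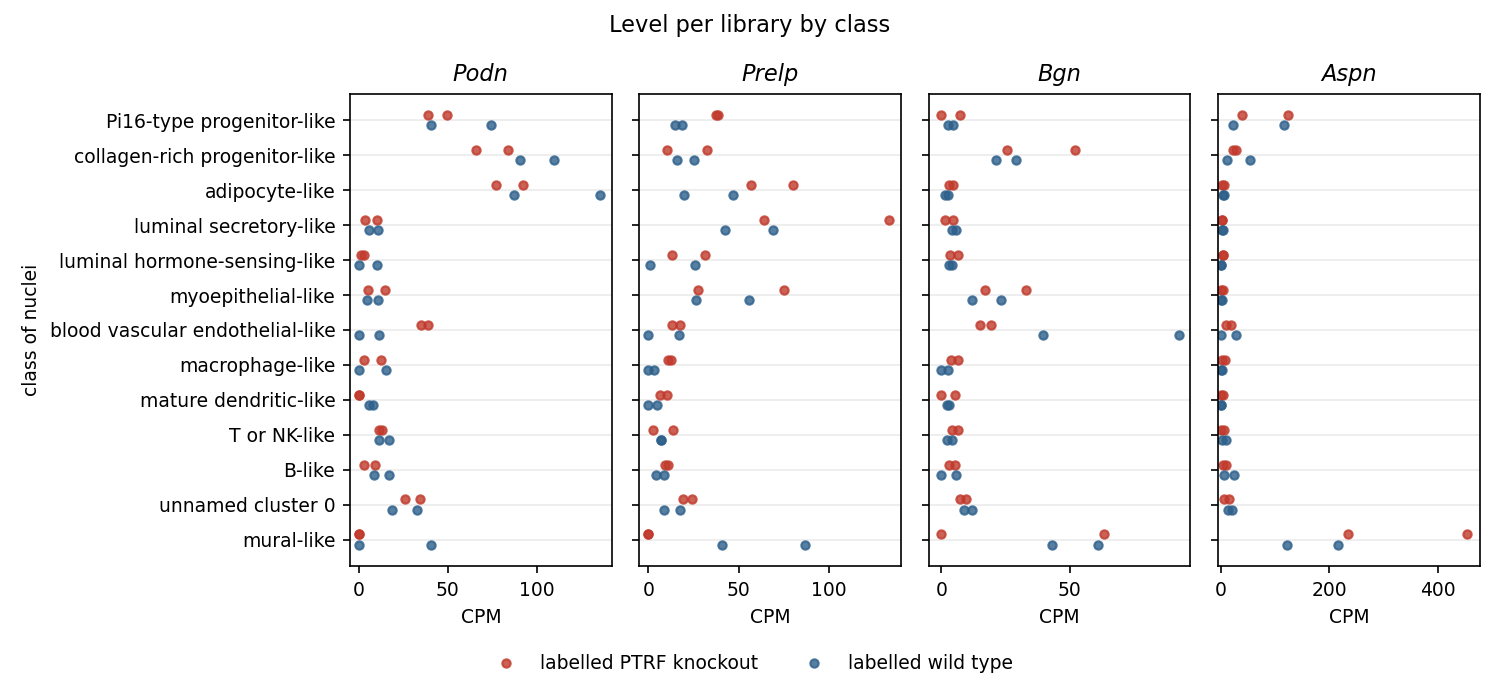
Level of Podn, Prelp, Bgn and Aspn per library (points, CPM) in each compared class and in mural-like nuclei, with the libraries labelled knockout above those labelled WT. Podn stands out in adipocyte-like and collagen-rich nuclei, Prelp in luminal secretory-like, adipocyte-like and myoepithelial-like nuclei, and Aspn in mural-like nuclei at up to 454 CPM.

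Fibromodulin, which binds collagen and lysyl oxidase, was at 0 to 7.52 CPM in every library of each compared class. Its highest class mean was 5.80 CPM in myoepithelial-like nuclei, on 25 counts, and T or NK-like nuclei reached 7.52 CPM of Fmod in a single library. No compared class rose above the highest T or NK-like value of Fmod at this depth, and the gene did not pass the low-count filter in the class contrasts.

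Between the labelled genotypes, Lum was higher under the knockout label in all nuclei and in progenitor-like nuclei, and no other member passed there in edgeR. No member passed in edgeR in any of the 12 classes taken singly. In all nuclei Lum stood at 25.1 and 60.5 CPM under the knockout label and at 9.62 and 13.3 under the WT label. The difference was 2.00 on the log2 scale (SE 0.46, edgeR adjusted p = 0.0164), where 0.103% of 28075 genes passed (0.0712% higher). The groups did not overlap, as for 7.27% of genes in that direction. A sum over all nuclei does not by itself separate the number of progenitor-like nuclei from the RNA in each. Their share was 5.96% and 11.7% under the knockout label against 9.15% and 9.14% under the WT label. Knockout 1 thus had the lowest share and knockout 2 the highest, and without knockout 2 the Lum difference was 0.97. The part of this share in the difference was not tested. The call was lost with DESeq2 (2.02, adjusted p = 0.196), with no filter on low counts, with stricter nuclei, and without any of the 4 libraries (0.97 to 2.59).

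Within progenitor-like nuclei Lum stood at 309 and 397 CPM under the knockout label and at 86.4 and 78.3 under the WT label. Both high values were under the knockout label and the groups did not overlap, as for 14.5% of genes in that direction. The difference was 2.04 (SE 0.29, edgeR adjusted p = 0.0414), where 0.0473% of 12691 genes passed (0.0315% higher). It kept its call without each library in turn (1.82 to 2.22) and with DESeq2 (2.04, adjusted p = 4.07e-05), and lost it with the replicate number as a block (2.02, edgeR adjusted p = 0.375). The share of progenitor-like nuclei with a Lum UMI was 20.1% and 33.7% under the knockout label against 8.09% and 8.21% under the WT label. With each nucleus thinned to 500 UMIs it was 12.3% (exact 95% interval 9.99 to 14.9) and 13.03% (11.5 to 14.6) against 4.08% (3.11 to 5.25) and 3.12% (1.89 to 4.83). The thinned share in T or NK-like nuclei was 0.699% and 0.645% under the knockout label against 0.078% and 0.234% under the WT label. Median depths before thinning were 1211.5 UMIs in progenitor-like and 871 in T or NK-like nuclei, and the intervals cover counting error only.

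The mix of progenitor-like nuclei varied between libraries. Pi16-type nuclei, the kind lower in Lum, made up 10.2% and 26.8% of it under the knockout label against 34.8% and 35.0% under the WT label. The lowest share rests on 73 Pi16-type nuclei, and the shares were not tested. Within each kind the Lum difference had the same sign and did not pass in edgeR. In collagen-rich nuclei the difference was 1.74 (SE 0.30, edgeR adjusted p = 0.26, with 0.0279% of 10749 genes passing), and DESeq2 called it (adjusted p = 0.00403). In Pi16-type nuclei it was 2.09 (SE 0.56, edgeR adjusted p = 0.516, with 0.0384% of 7808 genes passing). Without each library in turn the Lum difference ran from 1.42 to 2.01 in collagen-rich nuclei and from 1.31 to 2.60 in Pi16-type nuclei. Per 100 Dcn UMIs of the same nuclei, collagen-rich nuclei held 18.0 and 14.8 Lum UMIs under the knockout label against 5.16 and 8.47 under the WT label. Pi16-type nuclei held 5.68 and 8.34 against 0.69 and 3.04 in the same order. The Lum shift in T or NK-like nuclei (log2 1.80, SE 0.74, edgeR adjusted p = 1.0) and in myoepithelial-like nuclei (2.18, SE 0.87, adjusted p = 1.0) had the same sign without passing. So did that in luminal secretory-like (2.18, SE 1.04), unnamed cluster 0 (1.085, SE 0.46) and adipocyte-like nuclei (1.06, SE 0.69). The sign was positive in each class where Lum passed the low-count filter. That filter asks for enough counts in only 2 libraries, so at low levels a gene can enter through its higher group alone. These signs outside progenitor-like nuclei are thus a description. Lum was untested in B-like, blood vascular endothelial-like, luminal hormone-sensing-like, macrophage-like and mature dendritic-like nuclei.

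In progenitor-like nuclei the Dcn difference between the labels was smaller than its error, at 0.26 (SE 0.43, edgeR adjusted p = 1.0), and each labelled group held a high and a low library. Its share of progenitor-like nuclei with a UMI, thinned, was 42.7% and 50.5% under the knockout label against 59.5% and 37.9% under the WT label. Bgn (0.93), Ogn (0.42), Prelp (0.41) and Omd (0.35) were numerically higher in progenitor-like nuclei, and Aspn (-0.25) and Podn (-0.32) lower, none of them passing. The median of the 8 tested members was 0.38, against 0.00 over all genes tested. Sums of marker lists, those of other cell types among them, also varied with the label in these nuclei. Of 19 marker lists, 6 had both sums under the knockout label above both under the WT label, as Lum did, 2 had them below, and 11 overlapped. The 7 mural markers summed to 433 and 332 CPM under the knockout label against 246 and 201 under the WT label, and the 6 plasma cell markers to 36.3 and 84.9 against 12.5 and 16.8. The B (179 and 226 against 148 and 129.8), macrophage (96.8 and 151 against 76.2 and 76.1), mature dendritic (56.5 and 50.7 against 35.3 and 33.6) and myoepithelial lists (87.4 and 85.1 against 80.2 and 62.7) did so too. The Pi16-type and blood vascular endothelial lists were the 2 below, and the 10 adipocyte markers overlapped, at 865 and 1770 against 1061 and 529. The mural marker Pdgfrb was also among the 100 leading genes of the collagen-rich cluster. The mural sums ran from 269 to 456 CPM in collagen-rich and from 109 to 232 CPM in Pi16-type nuclei. The part of these markers in the result was not tested.

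In adipocyte-like nuclei 0 of the 8 members tested passed in edgeR, where 0.348% of 17804 genes passed. Of the 8, 2 had an unadjusted p under 0.05, Ogn and Prelp, ranked 97 and 272 by p among the 17804 genes. DESeq2 called 0 and gave no adjusted p for 4 of the 8, Lum, Bgn, Fmod and Aspn. Ogn stood at 9.92 and 15.6 CPM (28 and 154 counts) in the libraries labelled knockout and at 2.68 and 3.12 (16 and 5 counts) under the WT label. The difference was 2.18 (SE 0.62, edgeR adjusted p = 0.146), and the groups did not overlap, as for 12.9% of genes in that direction. T or NK-like nuclei held 4.02 to 11.0 CPM of Ogn, and adipocyte-like nuclei lay above these in both libraries labelled knockout and below them in both labelled WT. Prelp stood at a difference of 1.11 (SE 0.41, edgeR adjusted p = 0.591) on the adipocyte-like values given above. Without knockout 1, which leaves 1 library under that label, the difference was 2.58 for Ogn and 1.49 for Prelp. In adipocyte-like nuclei 3 of the 19 marker lists (B, plasma and luminal hormone-sensing) had both sums under the knockout label above both under the WT label. The luminal hormone-sensing markers summed to 1198 and 2202 CPM against 1165 and 497.0. The progenitor markers, at 674 and 682 under the knockout label against 1080 and 931 under the WT label, and the Schwann markers were the 2 lists below. Their part in these differences was not tested.

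The difference between classes in the labelled-genotype effect was tested as an interaction, progenitor-like minus adipocyte-like, over 8 sums. Of 16962 genes 0.124% passed, and 0 of the 8 members tested did. Ogn had the largest interaction among the members (-1.74, SE 0.44, edgeR adjusted p = 0.204), then Lum (0.97, SE 0.45, adjusted p = 0.878). Over the 12 classes taken singly, 55 tests of members gave 0 calls in edgeR and 1 in DESeq2, that of Lum in collagen-rich nuclei, with no DESeq2 adjusted p for 7, and 10 at an unadjusted p under 0.05. Of all gene tests in these classes, 0.105% passed in edgeR at adjusted p under 0.05. The share of all gene tests at an unadjusted p under 0.05, or called by DESeq2, was not counted.

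The collagens and their partners were followed as lists of genes with a known tie to the family. Between the labelled genotypes 0 of them passed in edgeR: 98 list genes were tested in all nuclei, 82 in progenitor-like and 87 in adipocyte-like nuclei. An unadjusted p under 0.05 was seen for 8, 18 and 9 of them in the same order, and DESeq2 called 0, 1 and 0, the 1 being Col5a3 (adjusted p = 0.000921), a minor chain of type V collagen. DESeq2 gave no adjusted p for 5, 1 and 11 of them, and called 25 of all 12691 genes in progenitor-like nuclei. For scale, an unadjusted edgeR p of 0.0712 ranked 437 of 28075 genes in all nuclei. In progenitor-like nuclei 0.0628 ranked 579 of 12691, and in adipocyte-like nuclei 0.129 ranked 1379 of 17804, by the same test. In progenitor-like nuclei the median difference of the 12 tested fibrillar and associated collagens was 0.92, against 0.00 over all genes tested. Col1a1, a chain of type I collagen, stood at 1.33 (edgeR adjusted p = 0.58) and Col6a1 at 1.29 (adjusted p = 0.311). The medians of the other lists in these nuclei lay between -0.08 and 0.27.

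Between classes, the list genes were among those used for clustering, so their differences are a description. Progenitor-like nuclei passed as higher than adipocyte-like nuclei for 10 of 12 collagens and lower for 0, and for 17 of 20 genes of fibril assembly and crosslinking with 0 lower. Col1a2 stood at 5.84, Col1a1 at 5.41, Postn (periostin, a matricellular protein) at 5.23 and Fbn1 (fibrillin) at 5.17 on the log2 scale. Of the TGF-beta ligands, latency proteins and receptors 7 of 10 were higher and 2 lower, with Ltbp1 at 3.42 and Ltbp2 at -1.40. Of the genes that build the sulfated chains, 8 of 21 were higher and 0 lower, among them Dsel (2.83), which helps turn chondroitin into dermatan sulfate. Of the receptors that bind these proteoglycans 7 of 10 were higher, Egfr at 4.58 among them, and 2 lower, Met (-1.96) and Erbb4 (-2.17). Of the proteases 5 of 7 were higher, Mmp3 at 5.39 and Mmp14 at 5.10 among them. Among the other family members not described here, 2 of 4 tested were higher, Ecm2 (3.42) and Epyc (2.45).

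Pi16-type nuclei, set against collagen-rich nuclei, passed as higher for 1 of 12 collagens, Col14a1 (2.54), and lower for 6, Col1a1 (-1.35) among them. Of the fibril assembly genes 6 of 19 were higher, with Fn1 (fibronectin) at 2.31 and Pcolce2 at 2.20, and 5 were lower, with Plod1 at -2.16, Postn at -2.16 and Lox at -1.83. Lox and Plod1 encode enzymes of collagen crosslinking. Of the chain-building genes 3 of 17 were higher, with Ugdh at 2.93, and 3 lower, with Csgalnact1 at -2.06. Ugdh makes the uronic acid donor and Csgalnact1 starts chondroitin chains. The TGF-beta list had 2 of 9 higher, Tgfb2 (1.83) and Tgfbr2 (1.30), and 0 lower. Of the receptors 2 of 9 were higher and 3 lower, and of the proteases 0 of 6 were higher and 1 lower, Mmp3 (-1.42).

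The genes whose levels ran most like a member's were listed for the 5 members with at least 1000 UMIs. The measure was Pearson's r of log2(CPM + 1) over 48 sums, 12 classes in 4 libraries, among 10798 genes. These points share libraries, depth and classes, so the values are a description. Lum ran closest to Col1a1 (0.888), Col6a1 (0.852) and Pdgfrb (0.840), and Dcn to Col1a2 (0.934), Ddr2 (0.906) and Tmeff2 (0.904). Ogn ran closest to Lrrc17 (0.892), Nova1 (0.859) and Lama2 (0.830). Podn ran closest to Rarres2 (0.818), Svep1 (0.810) and Sgce (0.805). Prelp had the lowest values, with Ltbp3 (0.772), Gulp1 (0.734) and Hadhb (0.733). Among the members, Dcn stood at 0.818 with Lum, 0.811 with Ogn, 0.524 with Podn and 0.221 with Prelp.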

How the data were processed

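Raw UMI counts per gene and barcode, deposited by the authors, came, per the labels, from a Singleron GEXSCOPE nucleus kit. The submitters' processing notes name GRCm38 (mm10) and Seurat 4.3.0; the aligner is not given. Companion files with gene and barcode names served as keys. Barcodes were kept with at least 500 UMIs, 300 genes and at most 10% mitochondrial UMIs, and doublets were not removed. Nuclei were clustered with scanpy 1.11.5 (2000 variable genes without the 9 members, 30 components, 15 neighbours, Leiden resolution 1), and a cluster was named with at least 3 of a type's markers among its 100 leading genes. Counts were summed per library and class and tested with edgeR 4.0.16 (R 4.3.3; filterByExpr, TMM, quasi-likelihood, two-sided, Benjamini-Hochberg over all genes tested, threshold 0.05), between classes with the library as a block. Alternatives were DESeq2 1.42.0, its size factors, no filter, stricter nuclei, left-out libraries, a replicate block and clustering with the members. CPM divides a count by the summed UMIs of the class in that library, before TMM. Named genes are the members, Cavin1, list genes that passed, and the 3 nearest genes of each member with at least 1000 UMIs. Col1a1, Col6a1 and Col5a3 between the labelled genotypes were named after their values were seen. The members and lists were chosen with earlier results of these data known.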

Additional observations from a re-analysis of the deposited data

How the results depend on the processing

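Counts are of members that passed, of 9. In all nuclei the count of 1 (Lum) was 0 with no filter on low counts, 0 with nuclei of at least 1000 UMIs and 500 genes, 0 with DESeq2, and 0 to 0 on leaving out each library. In progenitor-like nuclei Lum passed under each alternative but the replicate block, including clustering with the members (2.01, adjusted p = 0.0463). The shared replicate numbers are not stated to pair animals, and deviations of same-numbered libraries correlated at -0.66 in all, -0.30 in progenitor-like and -0.41 in adipocyte-like nuclei. With the replicate block 0 members passed in all nuclei, 0 in progenitor-like (Lum 2.02, adjusted p = 0.375) and 0 in adipocyte-like nuclei. With the numbers crossed, an alternative added after seeing the data, the counts were 0 in all nuclei, 1 in progenitor-like and 2 in adipocyte-like nuclei. On leaving out each library the adipocyte-like count ran from 0 to 2, and the Pi16-type and collagen-rich counts each from 0 to 1. Genes passing overall also moved: 29 in all nuclei became 3 with stricter nuclei and 5 to 18 without a library, 6 in progenitor-like nuclei became 35 with no filter and 55 to 74 without a library, and 62 in adipocyte-like nuclei became 10 to 179 without a library and 17 with the block. A library left alone in its group is assumed to vary like the others.

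Uncalled log2 differences changed sign without some library. In all nuclei they ran from -0.742 to 1.175 for Dcn, -0.39 to 0.845 for Bgn, -0.044 to 0.153 for Fmod, -0.674 to 1.518 for Ogn, -0.591 to 0.769 for Aspn, -0.695 to 0.386 for Podn and -0.186 to 0.692 for Omd. In progenitor-like nuclei they ran from -0.17 to 0.829 for Dcn, -0.465 to 0.917 for Ogn, -0.546 to 0.836 for Prelp and -1.06 to 1.258 for Aspn. In adipocyte-like nuclei they ran from -0.368 to 0.897 for Dcn, -1.172 to 0.226 for Aspn and -0.746 to 0.016 for Podn. With stricter nuclei Aspn in all nuclei stood at -0.011 and Fmod in adipocyte-like nuclei at 0.176. The cause of these changes was not tested. With 2 libraries a group, and few UMIs for Fmod, Omd, Bgn and Aspn, differences in these 4 genes are weakly measured.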
